A study of Homo sapiens and Mus musculus with 5 samples.

Results

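The reporter RNA of HEK-293T cells was set against the plasmid DNA that had been transfected into them, using the 3 HEK-293T RNA libraries and the 3 plasmid input libraries among the 14 libraries of the series. The HEK-293T table holds 1561 of the 1625 alleles seen in any line, in 955 fragments that carry 346 SNPs, and all 1561 reached the minimum mean count of 10 over these 6 libraries and entered the comparison. Of these SNPs, 326 are named by chromosome and position and 20 by rs number. The assay was a modified STARR-seq screen of common variants linked to schizophrenia, run in HEK-293T cells and in the neural lines Neuro-2a, PC-12 and SH-SY5Y. A SNP could sit at 3 places in its fragment, counted by the 50, 100 or 150 bases in front, with 150, 100 or 50 bases following, and a fragment could be present with 2 alleles, numbered 1 and 2 as in the tables. The bases of the alleles and the sequences of the fragments were not used here. HEK-293T RNA came from transiently transfected cells for which the labels name no further treatment or genotype, and the input was amplified from the same plasmid pool before transfection, with RNA and input libraries each described as 3 biological replicates.

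STARR-seq places a candidate fragment inside the transcribed part of a reporter, so that a fragment with enhancer activity raises the amount of its own RNA. The RNA of a fragment over its share of the plasmid pool therefore reads its activity, and 2 alleles of a fragment that give different ratios have an allelic effect. HEK-293T is an embryonic kidney line that carries the SV40 large T antigen and is used widely because it takes up plasmids well. It is not a neuron, and a reporter on a plasmid reads a fragment outside its chromosome. The tables hold reporter counts and no endogenous genes, so the identity of the line could not be checked against markers.

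Of the positioned SNPs, 3 fell in the promoter window of a named protein-coding gene, taken as 250 bases before to 50 after the start site in RefSeq's table for GRCh38.p14. The windows are shown because they are the places in the library where a tested base sits beside a known start of transcription, and because fragments over the ZNF823 and FTCDNL1 windows were among those that passed the test. No source used here names the build of the files. The positions were read as GRCh38, since on chromosome 20 GRCh37 is too short to hold 2 of them, and gene names and windows hold only under that reading. The capital marks the base at the SNP's position, and all 3 windows read 5′ to 3′ on the minus strand. The ZNF823 window is chr19:11738897-11739196, the IZUMO1 window chr19:48746860-48747159 and the FTCDNL1 window chr2:199851143-199851442.
ZNF823: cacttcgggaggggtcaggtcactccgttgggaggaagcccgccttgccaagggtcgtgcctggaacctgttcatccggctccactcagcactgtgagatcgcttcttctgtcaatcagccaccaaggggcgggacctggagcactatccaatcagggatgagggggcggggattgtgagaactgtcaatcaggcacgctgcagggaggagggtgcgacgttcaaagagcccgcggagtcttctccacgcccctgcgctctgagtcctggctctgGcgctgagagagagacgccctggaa
IZUMO1: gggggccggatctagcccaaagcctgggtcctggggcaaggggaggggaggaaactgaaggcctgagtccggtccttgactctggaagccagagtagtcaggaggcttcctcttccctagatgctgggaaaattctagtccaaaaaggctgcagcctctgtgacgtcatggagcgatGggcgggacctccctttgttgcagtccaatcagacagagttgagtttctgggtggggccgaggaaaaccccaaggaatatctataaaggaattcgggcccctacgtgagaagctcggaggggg
FTCDNL1: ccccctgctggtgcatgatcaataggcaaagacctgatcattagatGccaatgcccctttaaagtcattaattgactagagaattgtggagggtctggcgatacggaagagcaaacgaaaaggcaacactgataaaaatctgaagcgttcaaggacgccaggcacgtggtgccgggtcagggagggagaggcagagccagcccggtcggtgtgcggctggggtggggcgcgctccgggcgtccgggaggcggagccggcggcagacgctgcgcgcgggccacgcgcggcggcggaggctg

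Counted from the first base of each window, the SNP was base 276 in ZNF823, 25 bases after the start site. It was base 178 in IZUMO1, 73 bases before the start site, and base 47 in FTCDNL1, 204 bases before it. Both strands were searched for 3 motifs. GGGCGG, the core of a GC box, was found 2 times in the ZNF823 window and 1 time in the IZUMO1 window, where the match ran over bases 178 to 183 and began at the SNP's base. CCAAT, the core of a CCAAT box, was found 1 time in each window, and in FTCDNL1 it ran over bases 48 to 52, directly behind the SNP's base. TATAAA was found in the IZUMO1 window alone. Among the 35116 promoter windows in the table, 45.0% held GGGCGG, 34.6% held CCAAT and 11.5% held TATAAA, so these matches are a description of the windows and no more.

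The RNA libraries held 6116805, 7846563 and 7097846 reads in replicates 1, 2 and 3, and the input libraries 7694420, 6437346 and 8244387. At 0 reads were 16, 256 and 25 alleles in the RNA libraries, and 3, 2 and 5 in the input libraries. RNA replicate 2 thus lacked 16.4% of the alleles, although its total was the highest of the RNA libraries. The input libraries were close to each other, with r between 0.990 and 0.995 for log2 CPM (counts scaled by library size) across alleles. The common biological coefficient of variation, edgeR's measure of spread between replicates, was 0.177 for the input libraries and 1.13 for the RNA libraries. PCR reads are not independent molecules, so read depth bounds the counting error alone. The protocol names no separate day or culture for a replicate, so p-values measure the spread between these libraries, which may be partly technical.

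Activity is given as log2 of the RNA CPM over the mean CPM of the 3 inputs, after scaling library sizes by trimmed means of M values (TMM). RNA replicate 1 stayed near the input, with an SD of 1.02 over alleles, quartiles of -0.45 and 0.35, and 85 alleles more than 2-fold above and 145 more than 2-fold below the input. Replicate 2 had an SD of 1.95, with 305 alleles above and 272 below by that margin, and replicate 3 an SD of 1.64, with 292 above and 322 below. Only 27 alleles lay more than 2-fold above the input and 42 more than 2-fold below it in all 3 RNA libraries. Taking each RNA library over an input library of its own number, so that no library is shared, activity had r = 0.609 between replicates 2 and 3 (1276 alleles), 0.322 between replicates 1 and 2 (1287 alleles) and 0.495 between replicates 1 and 3 (1517 alleles). Over alleles with reads in the libraries compared, replicates 2 and 3 thus resembled each other more than either resembled replicate 1. Plasmid DNA carried into an RNA library would also read near the input, and whether any RNA library, replicate 1 included, holds some was not tested.

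**Figure D1:**
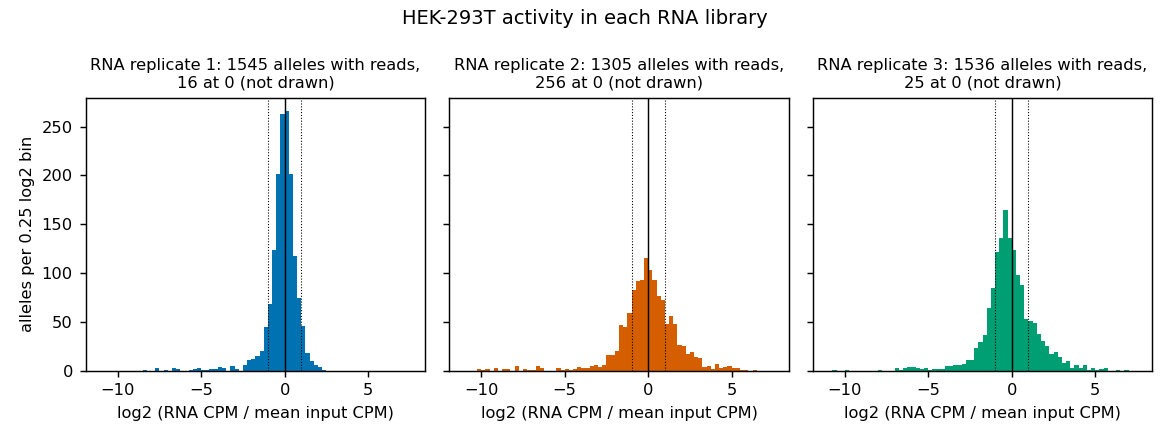
Histograms of activity, log2 of RNA CPM over mean input CPM, in the 3 HEK-293T RNA libraries, with alleles per bin of 0.25 on the y axis and dotted lines at 2-fold above and below the input. Replicate 1 is narrow (SD 1.02), and replicates 2 and 3 are wide (SD 1.95 and 1.64), with 16, 256 and 25 alleles at 0 that are not drawn.

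The libraries parted most among alleles that were rare in the plasmid pool. In the lowest quartile of alleles by mean input count, with a median of 777 reads, 38.6% were at 0 in RNA replicate 2, against 1.79% in replicate 1 and 1.53% in replicate 3. In the highest quartile, with a median of 9802 reads, 4.10% were at 0 in replicate 2. In the lowest quartile the SD of activity was 0.839 in replicate 1, 2.35 in replicate 2 and 1.96 in replicate 3, whereas in the highest quartile it was 1.27, 1.44 and 1.45. Agreement between libraries, over the mean input, also changed with the quartile. In the lowest, r was 0.599 for replicates 2 and 3, 0.205 for replicates 1 and 2 and 0.312 for replicates 1 and 3. These took in 234, 233 and 378 of 391 alleles, since an allele at 0 in either library was left out. Median activity in that quartile, over alleles with reads, was -0.016, 1.32 and 0.097 in replicates 1, 2 and 3. In the highest, r was 0.703 for replicates 2 and 3, 0.644 for replicates 1 and 2 and 0.747 for replicates 1 and 3, so there replicate 3 was closer to replicate 1 than to replicate 2 by r, and closer to replicate 2 by rank (rho of 0.740, against 0.640 with replicate 1). The alleles missing from replicate 2 were present in the others, with medians of 744 reads in replicate 1 and 479 in replicate 3. Abundance in the pool moves with these differences, and its part in any result below was not tested.

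**Figure D2:**
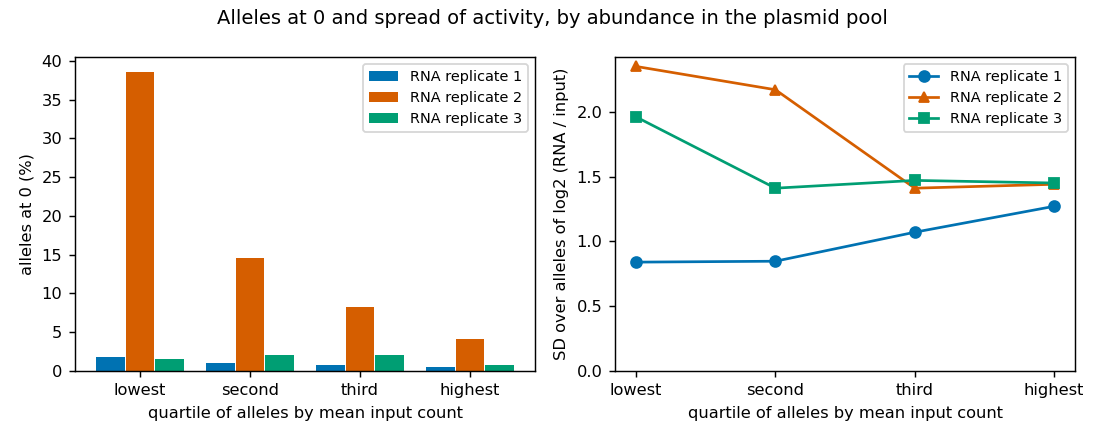
Left, the percentage of alleles at 0 in each HEK-293T RNA library for the 4 quartiles of alleles by mean input count. Right, the SD over alleles of log2 RNA over input, where replicates 2 and 3 start at 2.35 and 1.96 in the lowest quartile and all 3 libraries lie between 1.27 and 1.45 in the highest.

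The 2 alleles of a fragment are designed to differ at the SNP, and they could be compared within each library. In replicate 1 the activities of allele 1 and allele 2 had r = 0.759 over 593 fragments and differed by a median of 0.23 on the log2 scale. In replicate 2 the r was 0.115 over 412 fragments with a median difference of 1.19, and in replicate 3 it was 0.201 over 589 fragments with a median difference of 0.98. Among fragments whose alleles were both above the median input count, r was 0.769 in replicate 1, 0.304 in replicate 2 and 0.504 in replicate 3. Overlapping fragments of 1 SNP resembled each other little: with 50 and 100 bases in front, r was 0.303 in replicate 1, 0.166 in replicate 2 and 0.040 in replicate 3. All of these points share their library, and they are given as a description.

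**Figure D3:**
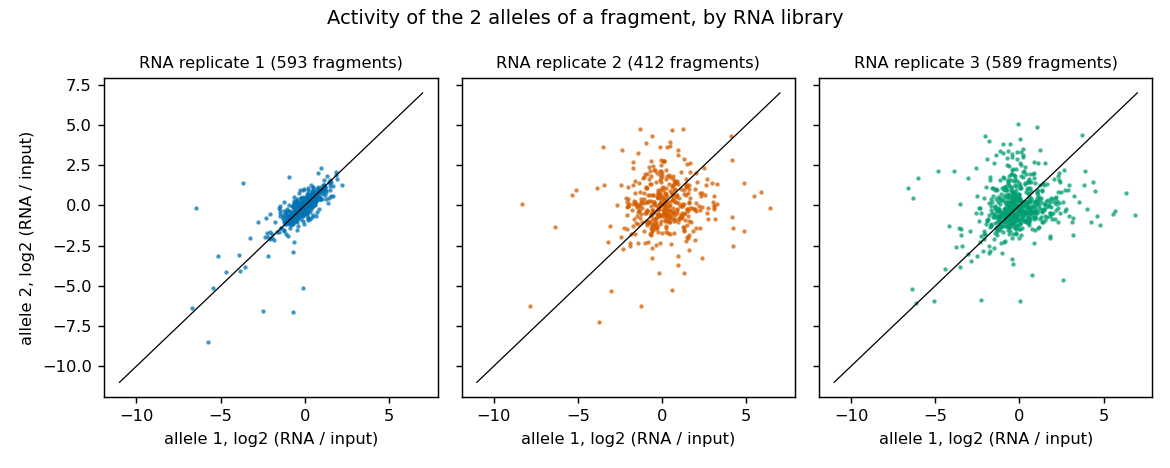
Activity of allele 2 (y axis) against activity of allele 1 (x axis) of the same fragment, both as log2 RNA over input, in each HEK-293T RNA library, with the line of equal values. Points follow the line in replicate 1 (r = 0.759) and spread around 0 in replicates 2 (r = 0.115) and 3 (r = 0.201).

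Over all 6 libraries, 21 alleles (1.35% of 1561) were above the input and 16 (1.02%) below it at an adjusted p of 0.05 (quasi-likelihood test in edgeR, adjusted after Benjamini and Hochberg over all alleles). The called alleles came from 26 SNPs, and 8 of these SNPs had more than 1 called allele. The alleles above the input reached at most a log2 fold change of 2.85, with a median of 1.34, whereas those below it went down to -6.87, with a median of -2.01. For all 37, every RNA library lay on one side of every input library, which over the whole table was so for 259 alleles (16.6%) above and 420 (26.9%) below the input. Of the 37 calls, 26 were in the highest quartile by input count and none in the lowest, and the called alleles above and below had median inputs of 9292 and 9122 reads, against 3518 over all alleles. Without any 1 of the input libraries no allele passed (181, 186 and 181 had an unadjusted p under 0.05), and none passed when the spread was taken from the RNA libraries alone (limma on log2 ratios, 155 with an unadjusted p under 0.05). DESeq2 called 368 alleles and limma-voom 63, with all 37 and 33 of the 37 among them. RNA replicates 2 and 3 over input libraries 2 and 3 alone, described below, called 33 of the 37 as well. That fit also leaves out RNA replicate 1, and without RNA replicate 1 and with all inputs, 37 of the 37 were called. It therefore cannot show how the calls depend on a single input library.

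The highest activity among the called alleles was at a SNP at position 136050568 of chromosome 3, inside PPP2R3A, which codes for a regulatory subunit of protein phosphatase 2A. With 100 bases in front, allele 2 had 5278, 9422 and 15650 CPM in RNA replicates 1, 2 and 3, against 1356, 1462 and 1402 CPM in the input libraries. Its log2 fold change was 2.85 ± 0.41 (SE, adjusted p = 0.041, edgeR). Every SE of an edgeR fit given here is the size of the log2 fold change over the square root of its F statistic. It therefore restates the test and is not a separate estimate of error. With 150 bases in front, allele 2 had 2474, 4380 and 3782 CPM in RNA, against 577, 614 and 591 CPM in the input, and a log2 fold change of 2.58 ± 0.24 (adjusted p = 0.024, edgeR). Allele 1 of that fragment passed as well, at 1.57 ± 0.17 (adjusted p = 0.024, edgeR). The RNA of these 3 alleles was above every input library in each replicate. The fragments with 50 bases in front of the same SNP were on the other side, with fitted values of -1.70 for allele 1 and -1.88 for allele 2 that did not pass (adjusted p = 0.11 and 0.091, edgeR). Their activity was -0.94 and -1.13 in replicate 1, and between -2.28 and -2.70 in replicates 2 and 3, so the sign turned with the placement in every RNA library.

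Other alleles above the input sat in or near genes with varied roles. Near MFAP4, a gene for a protein of elastic microfibrils, allele 2 with 150 bases in front had 3557, 7095 and 7346 CPM in RNA, against 1722, 1624 and 1640 CPM in the input, with a log2 fold change of 1.85 ± 0.30 (adjusted p = 0.046, edgeR). In the same place allele 1 with 100 bases in front had a log2 fold change of 1.43 (adjusted p = 0.041, edgeR). Some 8.64 kb from ACE, the angiotensin-converting enzyme gene, allele 1 with 100 bases in front had 1983, 3636 and 3869 CPM in RNA, against 916, 895 and 938 CPM in the input. At that SNP 4 of 6 alleles were fitted above the input and 2 below it, down to -0.92. For the first MFAP4 allele and the ACE allele replicate 1 was the lowest of the 3, at 1.10 and 1.11 on the log2 scale, against 1.99 to 2.14 in replicates 2 and 3. In OTUD7B, a deubiquitinase gene, allele 2 with 100 bases in front had 0.88, 1.45 and 1.65, so that replicate 1 was again the lowest, and a fitted value of 1.36 (adjusted p = 0.046, edgeR).

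In 3 further alleles replicate 1 was not apart from the other RNA libraries. In ANKRD63, allele 2 with 50 bases in front had activities of 1.46, 1.37 and 1.47, and a log2 fold change of 1.43 ± 0.14 (adjusted p = 0.024, edgeR). In MAD1L1, a gene of the spindle assembly checkpoint, allele 2 with 50 bases in front had 1.41, 1.11 and 1.47. In ALG12, which codes for a mannosyltransferase of N-glycan assembly, allele 2 with 50 bases in front had 1.24, 1.25 and 1.57. The fitted values of the MAD1L1 and ALG12 alleles were 1.34 and 1.36 (adjusted p = 0.024 for each, edgeR). The other allele of the ANKRD63 fragment was not as steady. Allele 2 minus allele 1 was -0.09, -3.52 and -2.93 in replicates 1, 2 and 3. At the ANKRD63 SNP 3 of 6 alleles were fitted above the input and 3 below it. All 2 measured alleles at the MAD1L1 SNP and all 6 at the ALG12 SNP were fitted above it.

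At 9 of the 26 called SNPs every measured allele was fitted above the input, and at 4 every one below it. Each of these SNPs was included for a called allele, and 2 to 6 alleles were measured at each. The share over all SNPs was not taken, so these counts say little about agreement between placements. A pair of the 9, near ALMS1 and in DPEP1, was chosen after its values were seen. Some 0.91 kb from ALMS1, a gene for a centrosomal protein, 3 of 5 alleles passed, with log2 fold changes of 1.10, 1.17 and 1.34. In DPEP1, which codes for a dipeptidase of the kidney's proximal tubule, the SNP at position 89631217 of chromosome 16 lies 947 bases from the start site and all 6 alleles had fitted values above 0, from 0.56 to 4.29. One of the 6 DPEP1 alleles passed, allele 1 with 150 bases in front, with 2736, 3921 and 3407 CPM in RNA, against 1637, 1575 and 1669 CPM in the input (log2 fold change 1.04 ± 0.16, adjusted p = 0.042, edgeR). The highest DPEP1 value, 4.29, belonged to allele 2 of that fragment, which had a mean input of 563 reads, activities of 1.03, 4.74 and 4.90, and did not pass (adjusted p = 0.091, edgeR).

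**Figure D4:**
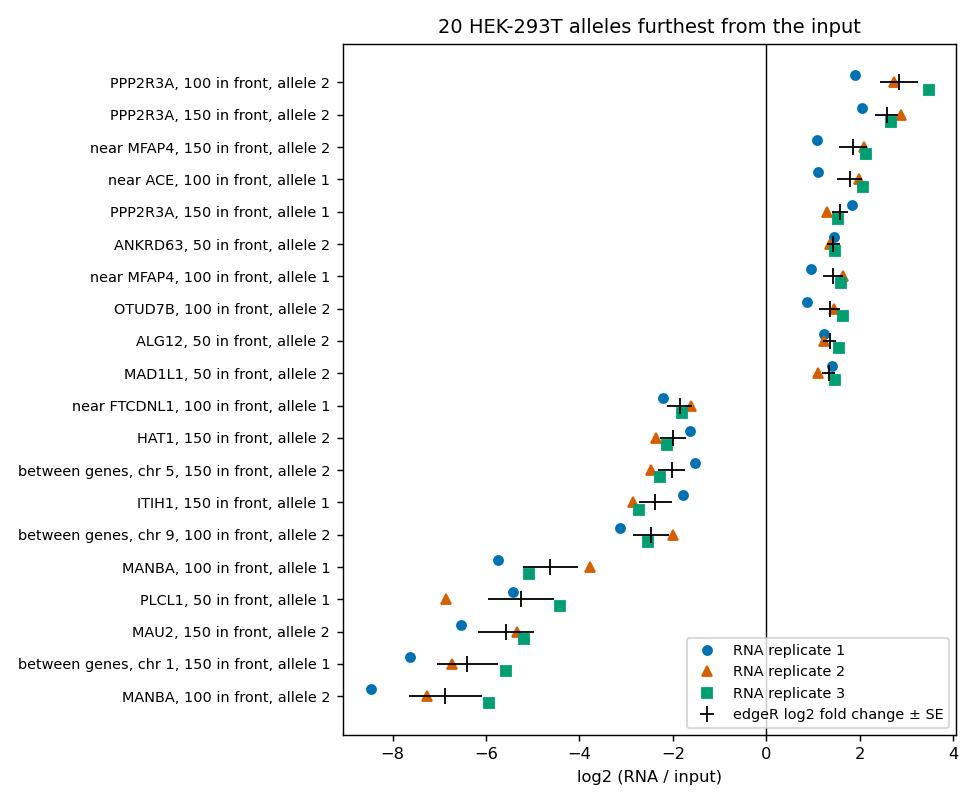
Activity, log2 RNA over input, of the 10 highest and 10 lowest called alleles in the 3 HEK-293T RNA libraries (points), with edgeR's log2 fold change and an SE derived from its F statistic (black). Labels give the gene, the bases in front of the SNP and the allele, and the values run from 2.85 in PPP2R3A down to -6.87 in MANBA.

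The lowest alleles had almost no RNA. At position 102730805 of chromosome 4, inside MANBA, the gene for lysosomal beta-mannosidase, allele 2 with 100 bases in front had 4.61, 10.5 and 26.5 CPM in RNA, against 1614, 1632 and 1632 CPM in the input, a log2 fold change of -6.87 ± 0.78 (adjusted p = 0.028, edgeR). Allele 1 of the same fragment had 46.1, 182 and 72.9 CPM in RNA, against 2533, 2414 and 2456 CPM in the input, a log2 fold change of -4.62 ± 0.59 (adjusted p = 0.035, edgeR). The fragments with 150 bases in front were lower still or as low in the fit, at -7.96 and -6.39, but each had a 0 in 1 RNA library and did not pass (adjusted p = 0.081 and 0.11, edgeR). With 50 bases in front, allele 2 had activities of -0.22, -1.37 and -0.90, closer to the input in each replicate than with 100 bases in front. Allele 1 of that fragment differed between libraries, with 667, 8.83 and 0 CPM in RNA replicates 1, 2 and 3, against 724, 722 and 718 CPM in the input, and did not pass (adjusted p = 0.75, edgeR).

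RNA was as scarce at 3 more SNPs. In MAU2, which codes for a subunit of the cohesin loader, allele 2 with 150 bases in front had 3.78, 8.70 and 9.73 CPM in RNA, against 355, 353 and 352 CPM in the input (log2 fold change -5.57 ± 0.59, adjusted p = 0.024, edgeR). In PLCL1, a gene for a catalytically inactive relative of phospholipase C, allele 1 with 50 bases in front had 23.03, 8.57 and 46.9 CPM in RNA, against 999, 1008 and 974 CPM in the input (log2 fold change -5.25 ± 0.71, adjusted p = 0.041, edgeR). At position 163793926 of chromosome 1, which lies between genes, allele 1 with 150 bases in front had 5.10, 9.62 and 21.3 CPM in RNA, against 1062, 967 and 1007 CPM in the input (log2 fold change -6.40 ± 0.66, adjusted p = 0.024, edgeR). In PLCL1 the measured allele with 100 bases in front was far below the input as well, with activities of -4.76, -3.45 and -6.79, whereas both alleles with 150 bases in front were fitted above the input, at 1.38 and 1.29, and none of these passed (adjusted p = 0.077, 0.25 and 0.17, edgeR). At the chromosome 1 SNP the alleles with 50 bases in front were fitted at 0.03 and -0.89, and the one with 100 bases in front at -2.58, without passing (adjusted p = 0.97, 0.25 and 0.25, edgeR). In MAU2 the highest other allele had a fitted value of 3.25 and did not pass (adjusted p = 0.11, edgeR).

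Called alleles at another set of SNPs were less far below the input. In ITIH1, a gene for a heavy chain of the plasma inter-alpha-trypsin inhibitor, allele 1 with 150 bases in front had 389, 187 and 203 CPM in RNA, against 1347, 1361 and 1326 CPM in the input (log2 fold change -2.37 ± 0.35, adjusted p = 0.041, edgeR). In HAT1, a histone acetyltransferase gene, allele 2 with 150 bases in front had activities of -1.62, -2.37 and -2.11. Between genes on chromosome 9, at position 22767165, allele 2 with 100 bases in front had activities of -3.14, -1.99 and -2.53, and on chromosome 5, at position 152943676, allele 2 with 150 bases in front had -1.53, -2.46 and -2.27. The HAT1, chromosome 9 and chromosome 5 alleles had log2 fold changes of -2.0, -2.48 and -2.03, each with an adjusted p of 0.041 to 0.042 by edgeR. At the HAT1 SNP 3 of 6 alleles were fitted above the input, up to 2.58, and 3 below it. At the chromosome 9 SNP 1 of 6 was fitted above it, at 1.12, and at the chromosome 5 SNP all 3 were fitted below it. In FANCA, a gene of the Fanconi anaemia DNA repair complex chosen after its values were seen, 3 of 5 alleles over all 3 placements passed, at -0.96, -1.01 and -1.43, and the other 2 were fitted at -1.65 and -0.48.

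A SNP in MSRA, a gene for a methionine sulfoxide reductase, was the 1 of 26 called on both sides of the input, and was singled out for that. With 50 bases in front, allele 2 had activities of 0.83, 1.14 and 1.51 and a log2 fold change of 1.19 (adjusted p = 0.046, edgeR). With 150 bases in front, allele 2 had -1.37, -2.12 and -1.84 and a log2 fold change of -1.74 (adjusted p = 0.042, edgeR). Over all alleles, the 3 placements had 10, 13 and 14 calls with 50, 100 and 150 bases in front (2.03%, 2.42% and 2.64% of their alleles).

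Of the 3 SNPs in promoter windows shown above, the FTCDNL1 SNP had all 5 measured alleles fitted below the input. Allele 1 with 100 bases in front had 150, 224 and 199 CPM in RNA, against 699, 689 and 680 CPM in the input, a log2 fold change of -1.85 ± 0.26 (adjusted p = 0.041, edgeR). Allele 2 with 50 bases in front had 386, 373 and 587 CPM in RNA, against 1363, 1262 and 1307 CPM in the input, a log2 fold change of -1.55 ± 0.24 (adjusted p = 0.042, edgeR). Allele 2 with 100 bases in front was below the input in replicate 1, at -1.96, and above it in replicates 2 and 3, at 0.22 and 0.14. At ZNF823, which codes for a zinc finger protein, 3 of the 6 alleles were fitted above and 3 below the input, from -0.85 to 0.80, and 1 passed. That allele, allele 2 with 50 bases in front, had 980, 1112 and 952 CPM in RNA, against 1806, 1791 and 1884 CPM in the input (log2 fold change -0.85 ± 0.13, adjusted p = 0.042, edgeR). None of the 5 alleles at the window of IZUMO1, a sperm protein gene, passed, with fitted values from -1.58 to 3.32.

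RNA replicates 2 and 3 alone, without replicate 1, gave many more calls: 303 alleles (19.4%) above and 193 (12.4%) below the input. Of the 303 above, 101 were in the lowest quartile by input, and none of the 193 below were. The 5 highest were an ITIH1 allele at 6.66, an allele in OSBPL10 and ZNF860 at 6.11, one at rs1498232 at 5.52, one between genes on chromosome 21 at 5.32 and one in ENOX1 at 5.30. The ITIH1 allele, with 50 bases in front, had 0, 559 and 767 CPM in RNA, against 6.21, 7.05 and 6.29 CPM in the input (adjusted p = 0.00056, edgeR, without replicate 1). The chromosome 21 allele, at position 20748190, had 40.1, 1760 and 2297 CPM in RNA, against 51.7, 51.6 and 48.7 CPM in the input. In replicate 1 none of these 5 rose above its input: 2 were at 0, and the others had activities of -2.19, -0.34 and 0.00. The 5 lowest were 3 MANBA alleles, the chromosome 1 allele described above and an ITIH1 allele with 100 bases in front, which had 4.77, 0 and 0.299 CPM in RNA, against 497, 500 and 499 CPM in the input.

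Replicate 1 could be set against replicates 2 and 3 with no library in common by testing RNA replicates 2 and 3 over input libraries 2 and 3, an alternative chosen after seeing the data. That fit called 174 alleles (11.1%) above and 54 (3.46%) below the input. In RNA replicate 1 over input library 1, 119 of the 171 called above that had reads were above the input (69.6%), and 45 of the 52 called below were below it (86.5%). Over all alleles, 48.7% were above and 51.3% below in replicate 1. The sizes differed: the alleles called above had a median log2 fold change of 2.05 in the fit of replicates 2 and 3 and of 0.29 in replicate 1, and those called below -1.64 and -0.86. In replicate 1, 28 of the 171 called above were more than 2-fold above input library 1 and 19 of the 52 called below more than 2-fold below it, against 85 and 146 of all 1543 alleles with reads in both libraries.

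Without RNA replicate 2, the library with most alleles at 0, replicates 1 and 3 gave 66 alleles (4.23%) above and 99 (6.34%) below the input. Of the 37 calls from all libraries, 35 were among them, and the other 2, in OTUD7B and near MFAP4, had an adjusted p of 0.053 in edgeR. The 5 highest were both PPP2R3A fragments with allele 2, at 3.01 and 2.50, a MAU2 allele at 2.80, an allele between genes on chromosome 5, at position 45187702, at 2.10, and one between genes on chromosome 15, at position 89357656, at 1.85. The MAU2 and chromosome 15 alleles were rare in the pool, with mean inputs of 90.3 and 76.3 reads. In RNA the chromosome 15 allele had 208, 0 and 225 reads, and its adjusted p with all libraries was 0.82 (edgeR). The chromosome 5 allele had 331, 146 and 413 CPM in RNA, against 92.1, 90.6 and 94.5 CPM in the input, so replicate 2 was on the same side but lower. The 5 lowest were a chromosome 4 allele between genes, at position 23421980, at -7.63, the ITIH1 allele with 100 bases in front at -7.59, an rs301798 allele at -7.04, the MANBA allele described above at -6.57 and the chromosome 1 allele at -6.13. Of these, the ITIH1 and rs301798 alleles were at 0 in replicate 2. The chromosome 4 allele had 8.06, 179 and 7.63 CPM in RNA, against 1644, 1685 and 1634 CPM in the input, and its adjusted p of 0.00028 without replicate 2 was 0.14 with it (edgeR). Without RNA replicate 3, 31 alleles passed, 18 of them among the 37.

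By the role of the gene that holds the SNP or lies within 10 kb of it, no list had more than 4 called alleles. Over all alleles, 1.35% were called above and 1.02% below, and counts this small say little about a list. Among 37 alleles at PPP2R3A, TAOK2 and PLCL1, listed with phosphatases and kinases although PLCL1 is neither, 3 were called above (all in PPP2R3A) and 1 below (in PLCL1), with a median log2 fold change of 0.26, against -0.11 over all 1561 alleles. Among 40 alleles of the list of solute and lipid enzymes, 1 was called above (in DPEP1) and 3 below (2 in MANBA and 1 in ITIH1, the gene of an inhibitor subunit), with a median of 0.25. Among 26 alleles of the list of adhesion and synapse genes, 1 was called above and 1 below, with a median of 0.31, and both calls were in MSRA, an enzyme gene of neither kind, so that the adhesion and synapse genes themselves had no call. Transcription factor genes, among them TCF4, FOXP1, SP4 and FOXO3, had 41 alleles with 1 call below (ZNF823) and a median of -0.29, and chromatin and RNA processing genes had 40 alleles with 1 call below (MAU2) and a median of -0.14. The 24 alleles at glutamate receptor genes and the serine racemase gene SRR had no call and a median of -0.45, and the 8 at voltage-gated calcium channel genes had no call and a median of -0.26.

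The allelic effect was the activity of allele 2 minus that of allele 1, on the log2 scale, and 606 fragments had both alleles. No fragment passed at an adjusted p of 0.05 (0% of 606, edgeR's quasi-likelihood test of the interaction of allele and RNA), and 25 had an unadjusted p under 0.05. The lowest adjusted p was 0.68, and the median SE of an effect was 0.82. DESeq2 called 11 fragments (1.82%), 8 with allele 2 higher and 3 with allele 1 higher, and limma-voom called none, with 66 at an unadjusted p under 0.05. The effect had the same sign in all 3 RNA libraries in 136 fragments.

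Among those 136, the smallest p with allele 2 lower was at the chromosome 5 SNP at position 152943676, with 150 bases in front. Allele 2 had activities of -1.53, -2.46 and -2.27 in replicates 1, 2 and 3, and allele 1 had -0.44, -0.37 and -0.94. The alleles did not overlap over the RNA libraries, and the effect was -1.50 ± 0.32 (unadjusted p = 0.0046, adjusted p = 0.68, edgeR; adjusted p = 0.00057, DESeq2). Both alleles were well represented, with mean inputs of 12340 and 10240 reads. In MANBA with 100 bases in front, allele 2 was lower by -2.72, -3.505 and -0.86, and the fitted effect was -2.38 ± 0.72.

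The smallest p with allele 2 higher was in MAU2 with 100 bases in front, with effects of 1.22, 3.501 and 2.91 in replicates 1, 2 and 3 and a fit of 2.58 ± 0.64 (unadjusted p = 0.0089, adjusted p = 0.68, edgeR). Its allele 2 had a mean input of 90.3 reads, against 15700 for allele 1. Near CTSF, a cathepsin gene, the effects were 1.27, 3.44 and 2.45, and near TBL1XR1, a gene of the nuclear corepressor complex, 1.08, 3.26 and 3.27. Allele 2 was again the rarer, with mean inputs of 1142 reads near CTSF and 97.7 near TBL1XR1, against 6653 and 7063 for allele 1. In CNTN2, which codes for the axonal adhesion protein contactin 2, they were 0.58, 0.98 and 1.04, with a fit of 0.87 ± 0.26 (adjusted p = 0.68, edgeR; 0.00065, DESeq2). In FOXO3, a forkhead transcription factor gene, allele 1 with a mean input of 106 reads was the more active, with effects of -0.99, -4.86 and -5.26. The other 3 of the 10 fragments of smallest p had fits of 1.45 on chromosome 21, -0.84 near COQ10B and -0.83 in DNAJA3.

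**Figure D5:**
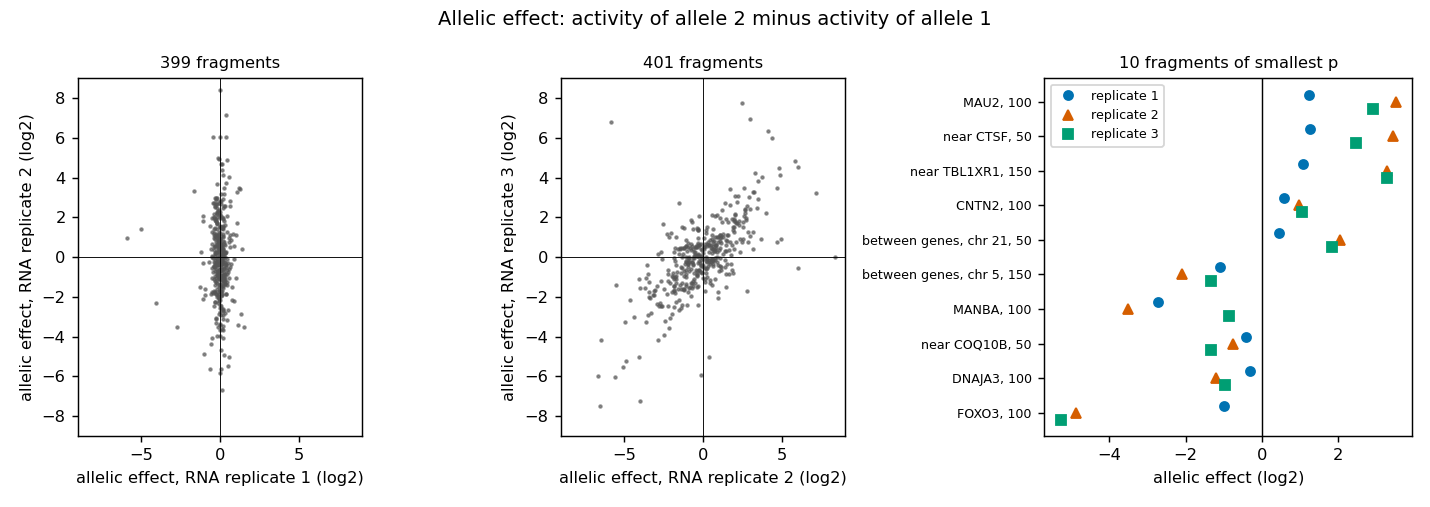
Left and middle, the allelic effect (log2 activity of allele 2 minus allele 1) of each fragment in RNA replicate 2 against replicate 1 and in replicate 3 against replicate 2. Right, the 10 fragments of smallest p with the same sign in all libraries, with each RNA library as a point and the bases in front of the SNP in the label. Over all 593 fragments measured in replicate 1, and not the 10 on the right, effects there had a median size of 0.23.

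The replicates differed in the size of allelic effects. The median size was 0.23 in replicate 1, 1.19 in replicate 2 and 0.98 in replicate 3, and effects over 2-fold were seen in 6.24%, 58.0% and 49.2% of fragments. With each RNA library over an input library of its own, effects had r = 0.665 between replicates 2 and 3 (398 fragments), 0.033 between replicates 1 and 2 (399 fragments) and 0.125 between replicates 1 and 3 (576 fragments). Replicates 2 and 3 alone gave 126 calls (20.8% of 606), 63 in each direction, and without replicate 2 there were none (0%, 46 with an unadjusted p under 0.05, lowest adjusted p 0.094 in edgeR). In 104 of the 126 fragments the allele with fewer input reads was the more active, against 314 of all 606 in the same fit. In replicate 1 the 126 had a median size of 0.20, against 2.09 in replicate 2 and 1.92 in replicate 3, the libraries that chose them.

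The 5 largest of these calls in each direction show the pattern. In VRK2, a kinase gene, the effects were 0.13, -6.70 and -6.00 in replicates 1, 2 and 3, with mean inputs of 6687 reads for allele 2 and 330 for allele 1. In PRKD3, a protein kinase D gene, they were 0.40, 6.04 and 4.52, with mean inputs of 115 reads for allele 2 and 5725 for allele 1. In PPP1R21 they were 0.18, 4.16 and 6.36, and in SPATS2L -0.60, -5.62 and -6.03. In YWHAE, the gene of a 14-3-3 protein, they were 4.84 and 4.50 in replicates 2 and 3, with mean inputs of 76 reads for allele 2 and 11280 for allele 1, and an allele was at 0 in replicate 1. In each of the 10 the more active allele was the one with fewer input reads, 5 of the 10 had an allele at 0 in replicate 1, and no effect measured there exceeded 2-fold. Tested over input libraries 2 and 3 alone, replicates 2 and 3 gave 19 calls (3.14%), and 12 of the 16 with reads in replicate 1 had the same sign there over input library 1. The share of same signs over all fragments was not taken, so this small count says little.

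Summed over the fragments that carry both alleles, 311 SNPs could be tested, and none passed (0%, 45 with an unadjusted p under 0.05, edgeR), whereas DESeq2 called 40. The smallest p was at position 197951938 of chromosome 2, inside PLCL1, with summed effects of 1.77, 2.66 and 2.77 and a fit of 2.40 ± 0.34 (adjusted p = 0.17, edgeR). Next came a SNP between genes on chromosome 4 (1.53 ± 0.26), one in TCF4, a basic helix-loop-helix factor gene (1.26 ± 0.24), one near CTSF (1.39 ± 0.28) and one in FOXO3 (1.95 ± 0.41), each with an adjusted p of 0.21 by edgeR. The sum weights a fragment by its reads, and it does not always follow the fragments. On their own, the PLCL1 fragments were fitted at 1.71 and -1.15 and the TCF4 fragments at -0.40 and 2.42. Those near CTSF were at -1.6 and 2.39. In replicate 1 both PLCL1 fragments had allele 2 lower, at -0.17 and -0.94, while their sum gave 1.77. The replicate 1 sums of TCF4 (1.29, from 0.78 and -0.11) and chromosome 4 (1.425, from 1.20 and 0.20) also exceeded both fragments. Those near CTSF and in FOXO3 lay between their fragments. A summed effect is thus not an average of allelic effects. Without replicate 1, 116 SNPs passed, and without replicate 2 none did.

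Against the mean of SH-SY5Y, Neuro-2a and PC-12, tested on RNA counts alone over the 1436 alleles present in all 4 tables, no allele passed in HEK-293T (0%, 28 with an unadjusted p under 0.05, edgeR). The lowest adjusted p was 0.89 and the median SE of a difference 0.56. The test had no term for replicate number, although RNA libraries of the same number deviated together between lines (r from 0.146 to 0.708 over 8 pairs). For replicate 1, r was 0.638 with Neuro-2a, 0.708 with SH-SY5Y and 0.680 with PC-12. It was 0.146 and 0.226 for replicate 2 and 0.236 to 0.461 for replicate 3. The deviation of replicate 1 was thus largely shared with replicate 1 of each other line, and its cause was not tested. With a term for replicate number no allele passed either, and the ZNF823 and EPO alleles described next had an adjusted p of 0.33 each (edgeR). DESeq2 called 2 alleles (0.139%), both lower in HEK-293T. The ZNF823 allele described above had 993, 1088 and 906 CPM in HEK-293T RNA, against 5313, 3774 and 4594 CPM in Neuro-2a, 1676, 1114 and 1526 CPM in SH-SY5Y and 1122 and 2076 CPM in PC-12 (difference -1.19 ± 0.26, adjusted p = 0.89, edgeR; 0.0054, DESeq2). Every HEK-293T library was below every other library, and the nearest values, 1088 CPM in HEK-293T and 1114 CPM in SH-SY5Y, were close. The other allele, at position 100715476 of chromosome 7 some 4.99 kb from EPO, the erythropoietin gene, had a mean of 1148 CPM in HEK-293T and 2078 CPM in the other lines, and the groups overlapped. Of the 20 alleles named for activity, 17 were in all 4 tables, and 2 of these had an unadjusted p under 0.05: the allele near ACE, at 0.79 ± 0.33, and the HAT1 allele, at -1.02 ± 0.43. The highest PPP2R3A allele averaged 9821 CPM in HEK-293T and 10960 CPM in the other lines, a difference of -0.19 ± 0.52. The series is labelled as human and mouse, so this comparison of lines does not separate species from tissue.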

How the data were processed

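The files deposited by the authors give raw counts of reads for every allele of a fragment, with separate columns for RNA and plasmid DNA libraries, per the file headers. Per the labels' protocols, the input was amplified from the plasmid pool, and polyadenylated RNA was turned into cDNA and amplified by PCR. No molecular identifiers are named there. The submitters' processing notes name limma 3.40.6, and neither the aligner nor the counting tool or build is named in the sources used here. In the files an allele has at most 1 RNA and 1 input library at 0, so an allele lost from more libraries is not in the table.

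Alleles with a mean count of at least 10 were tested, and none of the 1561 fell below. Counts were analysed in R 4.3.3 with edgeR 4.0.16 (trimmed mean of M values, quasi-likelihood test, two-sided, adjusted p of 0.05), and with DESeq2 1.42.0 and limma 3.58.1 as alternatives. The activity and allelic fits were also run on simulated counts. Those counts had the same spread in RNA and input, unlike these libraries (1.13 for RNA and 0.177 for input). They therefore cannot show how the fits behave on these libraries. The allelic fit had terms for library, for allele and for allele by RNA. The input varies less than the RNA, and 1 common spread serves both (coefficient of variation 0.803). The named alleles were the 10 highest and 10 lowest called alleles whose RNA libraries had 1 sign, the 5 allelic effects of smallest p in each direction among those of 1 sign, the 5 highest and 5 lowest calls without replicate 1 and without replicate 2, and the 5 SNPs of smallest p. Genes come from a RefSeq table of GRCh38.p14, which gives gene spans and no exons: 220 SNPs lay inside a protein-coding gene and 106 between genes. RNA and input libraries of the same number did not deviate together (r from -0.090 to 0.062), so the numbers do not pair them. RNA libraries of the same number in HEK-293T and another line did (r from 0.146 to 0.708 over 8 pairs, highest for replicate 1). PC-12 replicate 2 was not used here. The comparison, the alleles and the gene lists were chosen with earlier results of these data known.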

Additional observations from a re-analysis of the deposited data

How the results depend on the processing

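The count of 37 alleles called for activity was 38 with DESeq2's size factors, 34 with total counts and 37 with a minimum of 50 reads or none. It was 368 with the DESeq2 test, 63 with limma-voom and 95 among the 1261 alleles with no 0. It was 0 with the replicate block and 0 with limma on log2 ratios. Leaving out 1 library gave 0 (each input library) to 496 (RNA replicate 1) calls. Among alternatives chosen after seeing the data, it was 51 with a weight per library kind, 580 and 114 without a 0 and without RNA replicate 1 or 2, and 228 for RNA replicates 2 and 3 over input libraries 2 and 3. The 20 named alleles lost the call in 128 of 380 cases over 19 alternatives. Allelic calls (0) were 11 with DESeq2, 0 to 126 without 1 library, 167 without a 0 and without RNA replicate 1, and 19 for replicates 2 and 3 over their inputs; the replicate block left them at 0. At the SNP level the 0 calls became 40 with DESeq2 and 0 to 116 without 1 RNA library. Against other lines the 0 calls became 2 with DESeq2 and stayed 0 with the replicate block. With a 0 taken as 0.5 counts, r was 0.128 for replicates 1 and 2, 0.244 for 1 and 3 and 0.316 for 2 and 3, in place of 0.321, 0.507 and 0.614 over the mean input. RNA alone, which leaves out the input, turned 7 of 10 named allelic effects: -4.87 in MAU2, -0.15 near CTSF, -3.61 near TBL1XR1, -0.40 in CNTN2, -2.24 on chromosome 21, 0.087 in DNAJA3 and 1.55 in FOXO3, since the alleles differ in input. The other causes were not tested.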

Other observations

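The ITIH1 SNP at position 52781889 of chromosome 3, chosen after its values were seen, had the widest range of any called SNP. Its 5 alleles were fitted between -8.21 and 6.08. Allele 2 with 50 bases in front, with a mean input of 18640 reads, stayed near the input at -0.09, -0.14 and -0.62 in RNA replicates 1, 2 and 3. Allele 1 of the same fragment, with a mean input of 50 reads, was at 0 in replicate 1 and at 6.42 and 6.88 in replicates 2 and 3. With 100 bases in front, allele 2 had -6.40 and -2.84 in replicates 1 and 2 and was at 0 in replicate 3, and allele 1 had -6.71 and -10.7 in replicates 1 and 3 and was at 0 in replicate 2. Of these, none passed with all libraries.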
